A study of Helianthemum marifolium subsp. andalusicum and Helianthemum marifolium subsp. marifolium and Helianthemum marifolium subsp. molle with 16 samples.

Results

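The transcripts described here are those counted least in leaves of origanifolium, 1 of 4 subspecies of the Mediterranean rockrose Helianthemum marifolium. A member is a cluster of assembled transcripts with a mean of at least 1 CPM (counts per 1000000 counts of its library) over all 16 libraries. Its highest CPM in the 4 origanifolium libraries also had to lie below its lowest CPM in the 12 other libraries. In all, 148 of 100462 counted clusters met this rule, or 0.459% of the 32213 clusters with a mean of at least 1 CPM. Of these, 2 were absent from origanifolium, with 0 counts in all 4 libraries, and 146 were counted at a reduced level. The rule used the origanifolium values themselves, so every difference between origanifolium and the other subspecies in these clusters is a description, with no test.

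The study sequenced poly-A RNA from adult leaves of plants grown from seed in a greenhouse and sampled 446 days after sowing. There were 4 libraries each of origanifolium, andalusicum, marifolium and molle, all from untreated leaves. Each subspecies has 2 codes in the library titles, with 2 libraries per code. In origanifolium, libraries 31 and 33 carry 1 code and libraries 38 and 39 the other, and what the codes stand for is not given. The organism label of the origanifolium libraries reads Helianthemum origanifolium, a species name, whereas the design text counts it among the 4 subspecies. The labels do not say that the libraries are separate plants, so p-values measure only the spread between these libraries, which may be technical.

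A cluster stands for an assembled sequence, not for a gene of known function. In an assembly made without a genome, 1 gene can give several clusters, for instance 1 for each splice form, allele or close paralog. The level of a cluster is then the level of reads assigned to that sequence, and a plant whose own copy of a gene differs in sequence can have its reads assigned elsewhere or not at all. Rockroses of this group are shrubs of dry, open ground, and their subspecies differ in leaf shape and hairs. The files pair no cluster with a gene name, so the clusters are told apart here by their levels, their assembler names and, for some, their transcript lengths. In bulk leaf tissue, fewer cells of a type and less RNA per cell cannot be told apart.

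The origanifolium libraries held between 22170314 and 32036854 counts, and the 12 others between 26908113 and 34121011. A count of 0 in all 4 origanifolium libraries allows a level of up to 0.0286 CPM over the group, taking 3 counts as the floor. Intervals and floors cover counting error only. Over the 21448 clusters counted in all 16 libraries, the median ratio of origanifolium to the other subspecies was 0.958, so the libraries were close to balanced as a whole. Among the other libraries marifolium 12 and 18 stood apart, with 3411 clusters of at least 10 counts found in that pair alone, whereas the next pair, andalusicum 1 and 3, had 172. Counts of members are therefore also given without that pair.

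Most of the reductions were moderate. The median ratio of the origanifolium mean to the mean of the 12 others was 0.486, the middle 50% of the members lay between 0.301 and 0.572, and the highest ratio was 0.717. Of the 148 clusters, 10 had a ratio below 0.05, 17 lay between 0.05 and 0.25, 53 between 0.25 and 0.5, and 68 between 0.5 and 0.75. The median ratio in single libraries was 0.493 in origanifolium 31, 0.450 in origanifolium 33, 0.463 in origanifolium 38 and 0.470 in origanifolium 39. The 4 libraries thus showed similar median reductions.

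**Figure D1:**
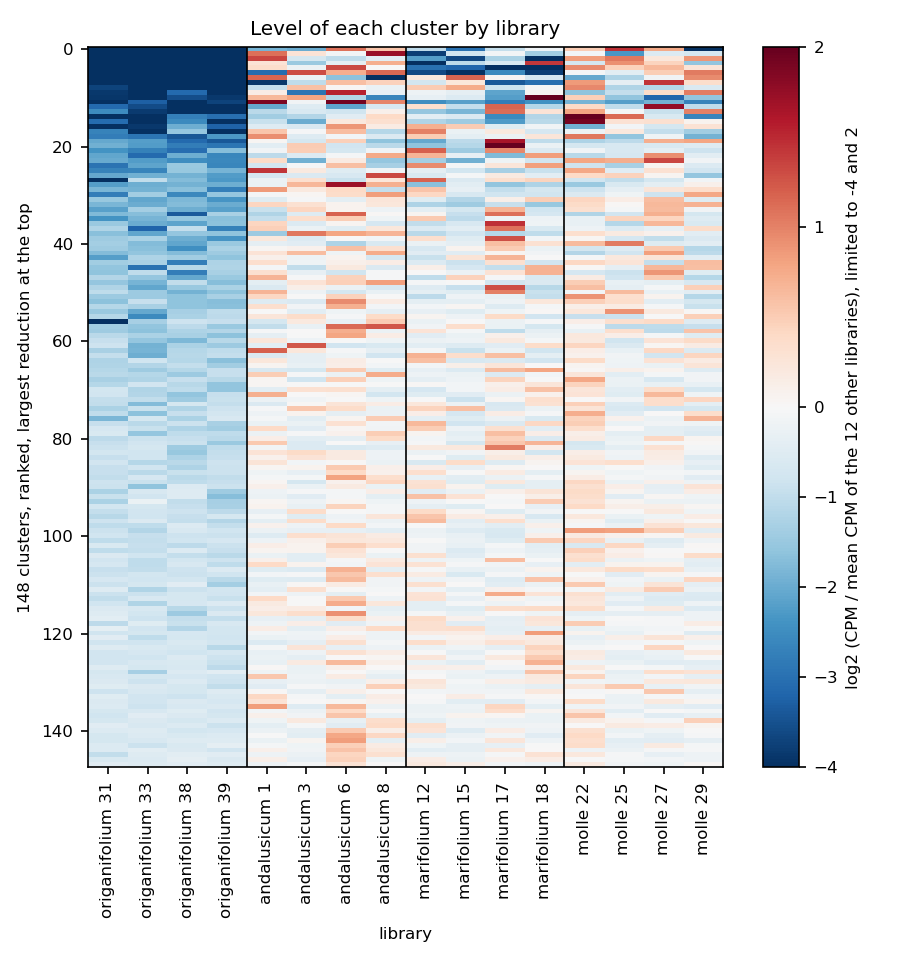
Heat map of the 148 clusters (rows, ranked by the ratio of the origanifolium mean to the mean of the others) in the 16 libraries (columns). Colour is the log2 of CPM over the mean CPM of the 12 other libraries, limited to -4 and 2; the origanifolium columns are the lowest in every row by the rule, and the few rows at the top carry the large reductions.

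Among the members, the size of the reduction went with the level of the cluster. The rule itself uses these levels, and the cause of this relation was not tested. Clusters lowest in andalusicum, marifolium or molle by the same rule also had their smallest median ratios below 10 CPM (0.0842, 0.0203 and 0.120). The order is thus a description and not a trait of origanifolium. In the 38 members below 10 CPM in the other subspecies the median ratio was 0.256, and 35 of them had a ratio below 0.5. In the 92 members between 10 and 100 CPM the median ratio was 0.524, with 40 below 0.5. In the 18 members at 100 CPM or more it was 0.571, with 5 below 0.5 and a range of 0.327 to 0.668. Members were well-counted clusters as a whole: their median level in the 12 other libraries was 25.8 CPM.

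Although no member overlapped, the gap between the groups was mostly small. For the 146 reduced members, the lowest other library stood at a median of 1.1 times the highest origanifolium library. The gap was under 1.1-fold in 73, and it reached 1.5-fold in 9 and 2-fold in 3. The 95% exact Poisson intervals of those 2 libraries were apart in 32 of the 148 members. That was so in 1 of 38 members below 10 CPM, 20 of 92 between 10 and 100 CPM, and 11 of 18 at 100 CPM or more.

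Members just inside the rule showed how thin its edge was. The 3 with the smallest gaps were separated by factors of 1.00168, 1.00206 and 1.00261. The first is also the most abundant member, with 1973 CPM in origanifolium 39 against 1976 CPM in andalusicum 3. The other 2 had 54.9 CPM in origanifolium 38 against 55.1 CPM in marifolium 15, and 45.4 CPM in origanifolium 33 against 45.5 CPM in marifolium 15. The 3 clusters just outside had factors of 0.999502, 0.996049 and 0.995732, the nearest with 21.70 CPM in origanifolium 33 against 21.69 CPM in molle 27. At the other threshold, the lowest mean of a member was 1.03 CPM. A further 4 clusters had the same order of libraries with a mean below 1 CPM, the highest at 0.790 CPM, and none of them was absent from origanifolium.

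**Figure D2:**
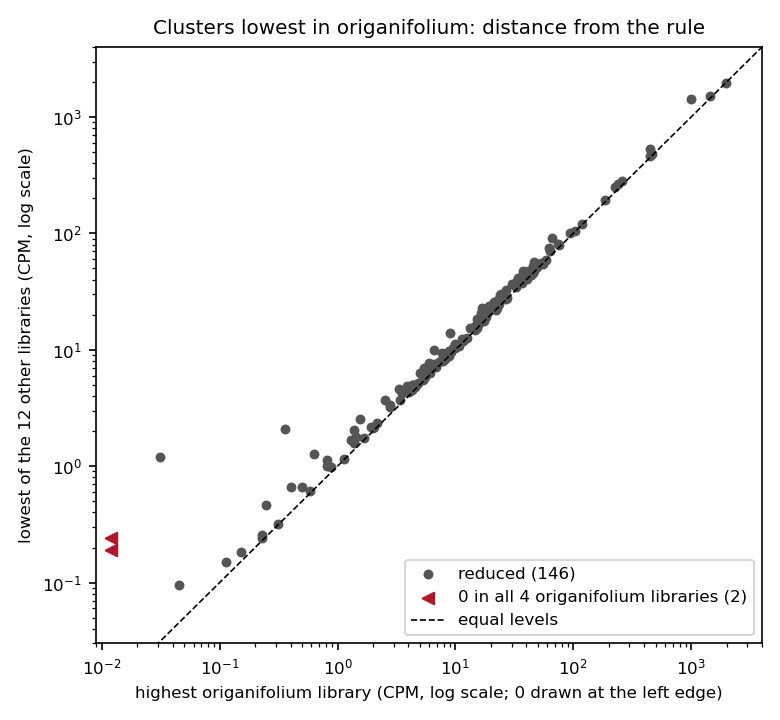
Highest origanifolium level (x axis, CPM, log scale) against the lowest level of the 12 other libraries (y axis, CPM, log scale) for the 148 clusters. The dashed line marks equal levels; most of the 146 reduced clusters lie close above it, the 2 absent clusters are drawn at the left edge, and the point far above the line at the left is the cluster with a 38.2-fold gap.

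Full absence was rare among the members. Cluster-3823.31154 had 0 counts in origanifolium 31, 33, 38 and 39. In andalusicum it had 4.88, 4.48, 37.8 and 25.9 CPM, in marifolium 8.64, 2.22, 9.19 and 15.5 CPM, and in molle 25.2, 48.8, 29.95 and 0.244 CPM. It was counted in every library of the other subspecies, but molle 29 stood near the floor with 7 counts. Against its mean of 17.7 ± 15.6 CPM (SD, n = 12) in the other libraries, origanifolium was at least 620-fold lower, taking the floor of 3 counts over the group. The difference among the 3 other subspecies did not pass the test (adjusted p = 0.586, edgeR quasi-likelihood F-test).

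The second absent cluster was weaker everywhere. It had 0 counts in all 4 origanifolium libraries. The andalusicum libraries had 5.54, 3.13, 2.41 and 8.57 CPM, the marifolium libraries 0.190, 1.52, 2.40 and 0.988 CPM, and the molle libraries 2.37, 0.520, 1.77 and 1.60 CPM. Its mean over the other libraries was 2.59 ± 2.34 CPM (SD, n = 12), which puts origanifolium at least 90.4-fold lower. Marifolium 12 stood near the floor with 6 counts. All 4 andalusicum libraries lay above all marifolium and molle libraries in this cluster, but only just, with 2.413 CPM in andalusicum 6 against 2.404 CPM in marifolium 17. The difference among the 3 subspecies did not pass the test (adjusted p = 0.246, edgeR quasi-likelihood F-test).

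Absence from origanifolium alone was uncommon against absence from origanifolium in general. Of the clusters with a mean of at least 1 CPM, 1778 had 0 counts in all 4 origanifolium libraries. Of those, 1288 (72.4%) were counted in 4 or fewer of the 12 other libraries. A further 7 were counted in 11 of the 12 and 21 in 10. Clusters with at most 1 count in any origanifolium library and all 12 others above it numbered 4, the 2 absent ones included.

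The other 2 of these 4 had a single count in 1 origanifolium library. Cluster-3823.41156 had 0 CPM in origanifolium 31, 33 and 38 and 0.0312 CPM, 1 count, in origanifolium 39. It had 77.3, 18.8, 15.4 and 23.2 CPM in andalusicum, 6.71, 2.48, 12.9 and 1.19 CPM in marifolium, and 54.8, 63.7, 36.1 and 56.5 CPM in molle. The groups were far apart, since the lowest other library was 38.2 times the highest origanifolium library. With 1 count in origanifolium and 11118 in the others, the pooled level in origanifolium was 3228-fold lower than the mean of the others, with a 95% counting interval of 579 to 127484.

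The second of the pair had 0.0451 CPM, 1 count, in origanifolium 31 and 0 in origanifolium 33, 38 and 39. Its mean in the 12 other libraries was 10.8 ± 8.39 CPM (SD, n = 12), between 0.0950 CPM in marifolium 12 and 28.9 CPM in marifolium 18. The pooled level was 1134-fold lower in origanifolium (95% counting interval 204 to 44796). The gap to marifolium 12, which had 3 counts, was 2.11-fold, so the lowest other library was itself close to the origanifolium level.

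The cluster with the second-largest gap was counted at a low level in every origanifolium library, with 0.361, 0.205, 0.0760 and 0.125 CPM. The andalusicum libraries had 2.46, 7.15, 4.83 and 3.98 CPM, the marifolium libraries 6.71, 7.91, 2.60 and 4.60 CPM, and the molle libraries 9.26, 2.08, 2.16 and 3.20 CPM. Its origanifolium mean of 0.192 ± 0.125 CPM (SD, n = 4) was 24.8-fold below the mean of the others, 4.75 ± 2.46 CPM (SD, n = 12). The 3 other subspecies overlapped widely here, and their difference did not pass the test (adjusted p = 0.916, edgeR quasi-likelihood F-test). A transcript of 2203 nt had the fourth-largest gap, with 0.370 ± 0.228 CPM in origanifolium (SD, n = 4) and 5.40 ± 5.10 CPM in the others (SD, n = 12).

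In all, 16 members stood below 0.1 of the level of the others, the 2 absent ones included. Most of these 16 also varied widely among the 12 other libraries, within a subspecies as well as between subspecies. The highest of the 12 other libraries was a median of 38.9 times the lowest, with a range of 4.45 to 305. The widest range lay within marifolium, between libraries 12 and 18. That cluster averaged 10.8 CPM in andalusicum, 10.3 CPM in marifolium and 11.3 CPM in molle. In the remaining 132 members that median was 2.40, with a range of 1.41 to 13.9. Marifolium had the lowest mean of the 3 other subspecies in 11 of the 16, and molle the highest in 9. Among all clusters of at least 1 CPM counted in all 12 other libraries, these shares were 33.4% and 28.4%. The order of the means was not tested, and in some of the 16 the means were close. The difference in range was not tested, because the rule sets a floor under the lowest of the 12 libraries.

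**Figure D3:**
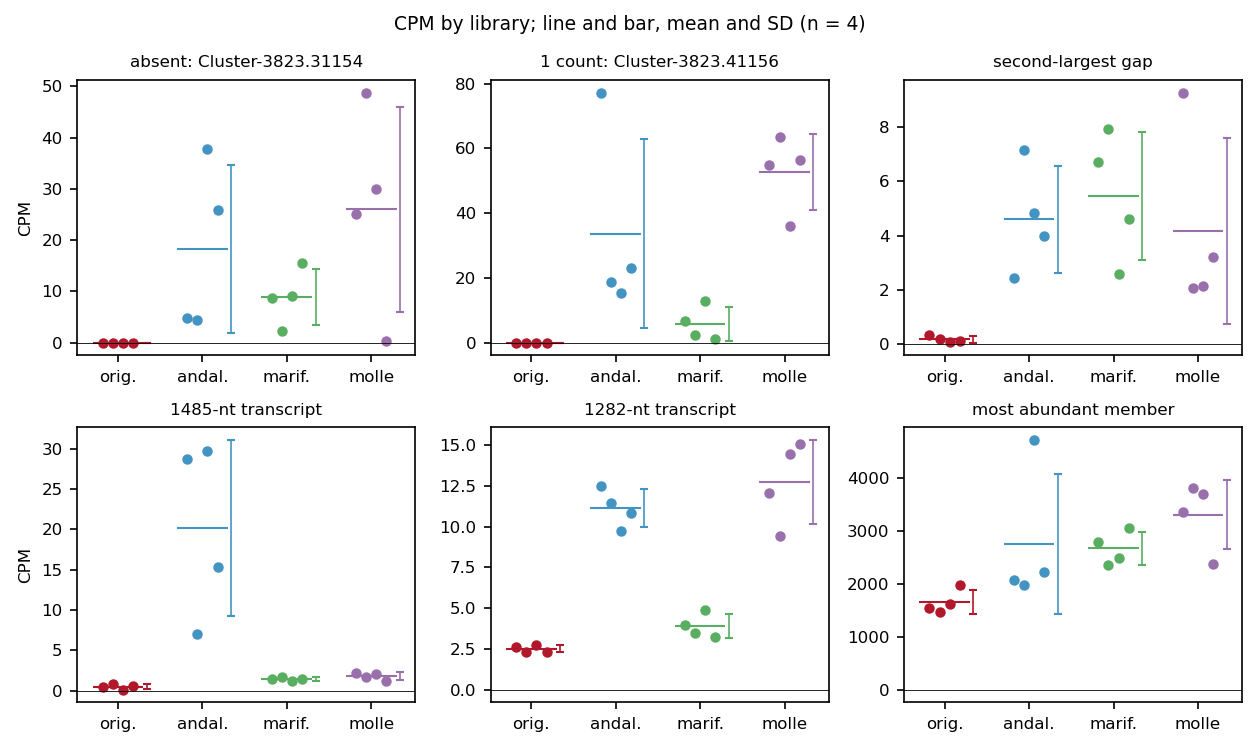
CPM in each library for 6 clusters, with points for the libraries of origanifolium, andalusicum, marifolium and molle from left to right, a line for the mean and a bar for the SD (n = 4). Each panel has its own linear axis from about 0; in the 2 clusters of the upper left and upper middle panels origanifolium lies on the axis, while in the most abundant cluster the highest origanifolium library reaches the lowest library of andalusicum.

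The most abundant members were reduced by about the median amount. The highest had 1538, 1476, 1619 and 1973 CPM in origanifolium. The other libraries ran from 1976 to 4713 CPM with a mean of 2905 ± 838 CPM (SD, n = 12), against 1652 ± 222 CPM in origanifolium (SD, n = 4). The groups met at their edge, and andalusicum 6 stood far above the other libraries of its subspecies. The second had 1460, 764, 1092 and 1099 CPM in origanifolium and averaged 2214 ± 571 CPM in the others (SD, n = 12).

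The third most abundant member had the clearest gap of the 6 highest. It had 723, 491, 795 and 999 CPM in origanifolium. Andalusicum had 1986, 1502, 1789 and 1562 CPM, marifolium 1594, 1439, 1769 and 2050 CPM, and molle 2356, 3749, 2302 and 2043 CPM. The lowest other library was 1.44 times the highest origanifolium library, and the ratio of means was 0.374. Its next 3 in level averaged 389 ± 52.6, 425 ± 28.6 and 387 ± 59.6 CPM in origanifolium (SD, n = 4), against 864 ± 330, 705 ± 136 and 699 ± 284 CPM in the others (SD, n = 12).

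A few members were lower in origanifolium while the other 3 subspecies were nearly level. These were chosen after their values were seen. Among the members with a ratio below 0.5, they are the 3 with the lowest coefficient of variation over the 12 other libraries. A transcript of 1067 nt had 7.70 ± 0.939 CPM in origanifolium (SD, n = 4), against 16.7 ± 2.14 CPM in andalusicum, 18.2 ± 1.88 CPM in marifolium and 17.0 ± 3.00 CPM in molle. Its coefficient of variation over the 12 other libraries was 13.1%. A transcript of 1121 nt had 13.1 ± 3.00 CPM in origanifolium (SD, n = 4) and 28.4 ± 4.51 CPM in the others (SD, n = 12). One of 912 nt had 7.32 ± 2.003 CPM in origanifolium (SD, n = 4) and 18.1 ± 3.70 CPM in the others (SD, n = 12). Its single libraries in the others ran from 10.4 to 23.6 CPM, a coefficient of variation of 20.5%. In each of these 3 the reduction was to between 0.405 and 0.460 of the level of the others, where the choice itself required less than 0.5.

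The rule bounds the lowest of the 12 other libraries and does not use which subspecies they belong to. Differences among the 3 other subspecies were therefore tested, on values that this bound limits. By the edgeR quasi-likelihood F-test over all 3, at an adjusted p under 0.05, 5 of the 148 members (3.38%) differed, against 3.54% of all 46027 tested clusters. Among the 21640 clusters of at least 1 CPM counted in all 12 other libraries, 2.53% differed. All 148 members passed the filter on low counts. Because the rule bounds these values and selects even clusters, nothing particular to the members is read from these shares.

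The same 5 members carried the pairwise results. All 5 were higher in andalusicum than in marifolium (background 1.34% higher and 2.15% in either direction). In andalusicum against molle 1 was higher (background 0.211% higher and 0.437% in either direction). In marifolium against molle 4 were lower (background 1.03% lower and 1.66% in either direction). The counts are small: leaving out marifolium 12 or marifolium 18 left 3 of the 5 in the test over all 3 subspecies. Calls over all tested clusters fell there from 1629 of 46027 to 835 of 51004 and 788 of 51504. Between andalusicum and marifolium, 3 remained without andalusicum 3, 6 or 8 and 2 without marifolium 18. Calls over all tested clusters fell there from 988 to between 365 and 434. None of the 148 differed between andalusicum and molle without andalusicum 1, 6 or 8 or without molle 22, 25, 27 or 29. Without marifolium 12 and 18 together, 1 member was called over all 3 subspecies, against 438 of all 60150 tested clusters. With the 2 libraries of each title code summed, edgeR called 0 members, against 0.0073% of all tested clusters. That fit had 9 members at an unadjusted p under 0.05 (6.08%, against 19.4% of all tested clusters).

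The smallest adjusted p belonged to a transcript of 1485 nt that was high in andalusicum alone. It had 0.451, 0.819, 0.0760 and 0.593 CPM in origanifolium. Andalusicum had 28.7, 7.02, 29.7 and 15.3 CPM, marifolium 1.39, 1.72, 1.14 and 1.47 CPM, and molle 2.17, 1.71, 2.10 and 1.22 CPM. No library outside andalusicum was above 2.17 CPM, and the 7.80 CPM average of the others came mostly from andalusicum. The difference among the 3 was called (adjusted p = 0.00267, edgeR quasi-likelihood F-test), at a log2 fold change of 3.73 ± 0.61 (SE) for andalusicum over marifolium (adjusted p = 0.00640) and 3.33 ± 0.60 (SE) over molle (adjusted p = 0.0228). Without marifolium 12 and 18 the calls over the 3 subspecies (adjusted p = 0.0235, edgeR quasi-likelihood F-test) and against molle (adjusted p = 0.0444) held, and the call against marifolium was lost (adjusted p = 0.111). The call against molle was also lost without any 1 of the 7 libraries named above, with adjusted p between 0.05004 and 0.0927.

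The other 4 were low in marifolium as well as in origanifolium. A transcript of 1282 nt had 2.62, 2.33, 2.78 and 2.34 CPM in origanifolium. Andalusicum had 12.5, 11.47, 9.73 and 10.8 CPM, marifolium 3.96, 3.48, 4.91 and 3.24 CPM, and molle 12.0, 9.40, 14.5 and 15.1 CPM. Origanifolium and marifolium were close and tight, and the other 2 subspecies stood well above them without overlap. Andalusicum was higher than marifolium by 1.52 ± 0.29 on the log2 scale (SE, edgeR quasi-likelihood F-test, adjusted p = 0.0178), and marifolium was lower than molle, with a log2 fold change of -1.82 ± 0.30 (SE, adjusted p = 0.00624). The first of these calls was lost without andalusicum 1, 3 or 8 or marifolium 18, with edgeR adjusted p between 0.0504 and 0.0605.

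The other 3 showed the same order with larger differences. Cluster-3823.41156, described above, differed among the 3 subspecies (adjusted p = 0.0284, edgeR quasi-likelihood F-test), with a log2 fold change of -3.36 ± 0.66 (SE) for marifolium over molle. That call was lost without origanifolium 39, without marifolium 12, 15 or 18, and without molle 22, 25 or 29, with edgeR adjusted p between 0.0514 and 0.0638. Its higher level in andalusicum than in marifolium, by 2.57 ± 0.64 (SE) on the log2 scale with an edgeR adjusted p of 0.0489, was no longer called in 21 of 24 alternatives, with adjusted p up to 0.239. The pair call against molle was lost without marifolium 15 (adjusted p = 0.0528) or molle 25 (adjusted p = 0.0548, both edgeR).

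Another had 0.586, 0, 0 and 0.312 CPM in origanifolium, against 58.9, 39.0, 116 and 46.5 CPM in andalusicum, 5.86, 5.16, 0.617 and 1.98 CPM in marifolium, and 89.1, 63.8, 72.7 and 55.6 CPM in molle. Marifolium 17 lay beside origanifolium 31, while every andalusicum and molle library lay far above all marifolium libraries. Its differences were 4.13 ± 0.84 for andalusicum over marifolium and -4.38 ± 0.85 for marifolium over molle (log2 fold change ± SE), with an adjusted p of 0.0246 over the 3 subspecies by the edgeR quasi-likelihood F-test. That p was 0.0505 without marifolium 12 and 0.0725 without marifolium 18, also by edgeR.

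The last had 0.180, 0.123, 0.228 and 0.2497 CPM in origanifolium. Andalusicum had 1.49, 30.9, 20.7 and 27.7 CPM, marifolium 1.01, 0.463, 2.11 and 0.920 CPM, and molle 11.9, 9.33, 17.4 and 25.5 CPM. Andalusicum 1 fell among the marifolium libraries. Andalusicum was higher than marifolium by 4.25 ± 0.74 on the log2 scale (SE, adjusted p = 0.0103, edgeR quasi-likelihood F-test), and marifolium was lower than molle (log2 fold change -3.99 ± 0.74, SE, adjusted p = 0.0129). With the title code as a random block in limma voom, its 3 calls were lost, with adjusted p of 0.150 over the 3 subspecies, 0.197 for andalusicum over marifolium and 0.158 for marifolium over molle. The other 4 members kept their calls under that block.

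Over all 148 members, marifolium had the lowest mean of the 3 other subspecies in 64 (43.2%, against 33.4% of the 21640 background clusters). Molle was lowest in 49 (33.1%, against 38.1%) and andalusicum in 35 (23.6%, against 28.5%). The highest mean was that of andalusicum in 54 members (36.5%, against 36.1% of the background), molle in 53 (35.8%, against 28.4%) and marifolium in 41 (27.7%, against 35.5%). Single libraries also stood at the edges: molle 29 was the lowest of the 12 in 27 members (18.2%, against 10.4% of the background), and andalusicum 6 was the highest in 32 (21.6%, against 12.5%). The members share their libraries, so these shares were not tested.

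Members were even within each subspecies compared with other clusters. Their median coefficient of variation was 18.7% in origanifolium, 25.6% in andalusicum, 27.6% in marifolium and 26.2% in molle. Over the 21640 background clusters it was 30.9%, 35.6%, 41.3% and 33.8% in the same order. A rule that forbids overlap selects even clusters, so these values are given as a description.

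The highest origanifolium library among the reduced members was library 31 in 44 (30.1%, against 22.5% of the background clusters), library 33 in 26 (17.8%, against 32.7%), library 38 in 44 (30.1%, against 20.8%) and library 39 in 32 (21.9%, against 24.0%). None of the 148 members differed between the title codes of origanifolium, libraries 38 and 39 against libraries 31 and 33, at an adjusted p under 0.05 by the edgeR quasi-likelihood F-test, against 0.00435% of all tested clusters. At an unadjusted edgeR p under 0.05 there was 1 (0.676%, against 4.73% of all tested clusters). That 1 member had 0.152 and 0.0624 CPM in libraries 38 and 39 and 0 in libraries 31 and 33. DESeq2 called 0, against 1.32% of the clusters it tested. The rule selects even clusters, so nothing particular to the members is read from these shares. With 2 libraries per code, a difference of this kind was not detectable unless it was large.

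**Figure D4:**
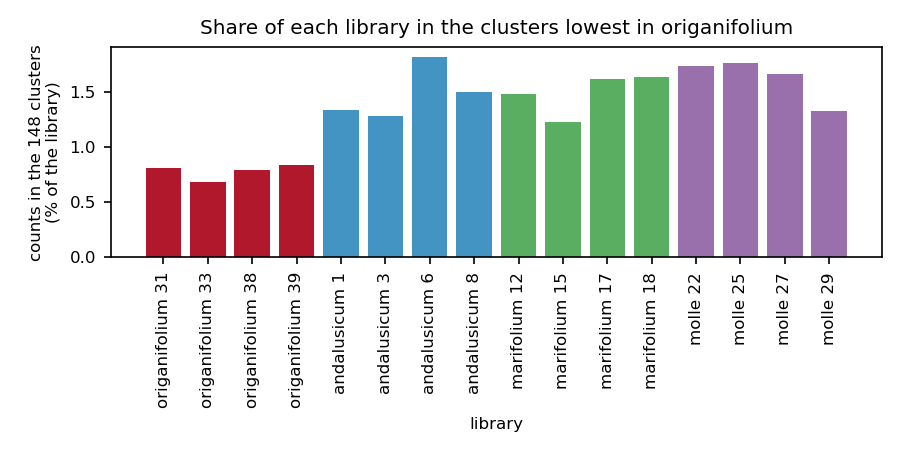
Percent of each library's counts (y axis, from 0) that fell in the 148 clusters, by library (x axis, coloured by subspecies). The 4 origanifolium bars lie between 0.679% and 0.835%, and the 12 other bars between 1.22% and 1.81%.

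Together the members took up a small part of each library. They held 0.779 ± 0.0687% of the counts in origanifolium (SD, n = 4), against 1.48 ± 0.241% in andalusicum, 1.49 ± 0.189% in marifolium and 1.62 ± 0.202% in molle. The single origanifolium libraries had 0.809%, 0.679%, 0.791% and 0.835%. The others ran from 1.22% in marifolium 15 to 1.81% in andalusicum 6.

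Because a gene can be split over clusters, the clusters that share an assembler gene name with a member were looked at next. They were found for 23 members (15.5%, against 21.5% of the 32213 clusters with a mean of at least 1 CPM). Among the members, 2 pairs were linked to each other. Of the 24 linked clusters that are not members, 20 passed the filter on low counts. By the edgeR quasi-likelihood F-test of origanifolium against the mean of the 3 other subspecies, 2 were lower in origanifolium (background 0.637%) and 0 were higher (background 2.78%). At an unadjusted p under 0.05, 10 were lower and 0 higher, where 19.9% of all tested clusters passed in either direction. DESeq2 called 5, all lower, where it called 4.05% of all clusters lower and 5.39% higher. The median log2 fold change of the 20 was -0.63, against 0.10 over all tested clusters. A linked cluster can share reads with its member, and the members were chosen as low in origanifolium, so the 20 are not independent of the rule.

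Of the 2 lower linked clusters, one is linked to the member with 0.586, 0, 0 and 0.312 CPM in origanifolium, and itself averaged 1.07 ± 1.95 CPM in origanifolium (SD, n = 4), against 54.3 ± 47.6 CPM in the others (SD, n = 12). Among those others it averaged 55.2 CPM in andalusicum, 0.857 CPM in marifolium and 107 CPM in molle, so marifolium was as low as origanifolium. Its log2 fold change was -3.99 ± 0.93 (SE, edgeR quasi-likelihood F-test, adjusted p = 0.0308). The whole gene, summed over its clusters, averaged 1.30 ± 2.04 CPM in origanifolium, against 101 ± 81.3 CPM over the 12 others, and its highest origanifolium library (4.31 CPM) lay above the lowest other library (1.07 CPM). The other is linked to 2 members at once and had 2.56 ± 0.954 CPM in origanifolium, against 8.69 ± 3.495 CPM in the others, with a log2 fold change of -1.69 ± 0.35 (SE, edgeR quasi-likelihood F-test, adjusted p = 0.0186). Summed, that gene averaged 14.5 ± 2.92 CPM in origanifolium, against 40.6 ± 17.4 CPM over the 12 others.

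These calls were lost when single origanifolium libraries were left out. Without origanifolium 38 neither was called. Calls of this test over all tested clusters also fell, from 1571 of 46027 with all libraries. Without origanifolium 31, 33, 38 or 39 they were 582 of 52716, 756 of 52994, 495 of 52775 and 515 of 52366. The first was lost without origanifolium 31 or 38 (edgeR adjusted p = 0.0870 and 0.0750) and also without marifolium 12 and 18 (0.0737). The second was lost without origanifolium 33, 38 or 39, with edgeR adjusted p between 0.0635 and 0.0766.

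In 4 linked genes the member was low in origanifolium while the total of the gene was nearer to level than in the other linked genes. The cluster that was lowest in origanifolium and marifolium and high in andalusicum 3, 6 and 8 belongs to a gene of 3 clusters. That gene summed to 99.5 ± 24.3 CPM in origanifolium (SD, n = 4) and 94.2 ± 30.2 CPM in the others (SD, n = 12). The member made up between 0.113% and 0.320% of the gene in origanifolium, against 0.530% to 30.5% in the others. Its 2 linked clusters stood at 1.22 and 1.21 times the level of the others, and neither was called.

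The second such gene summed to 14.6 ± 7.32 CPM in origanifolium (SD, n = 4), against 15.8 ± 2.98 CPM in the others (SD, n = 12). Its member held 2.60% to 7.5% of the gene in origanifolium and 7.26% to 85.7% in the others. The third summed to 2.64 ± 1.48 CPM in origanifolium (SD, n = 4) and 3.14 ± 2.25 CPM in the others (SD, n = 12), of which the member held 4.0% to 5.56% in origanifolium and 19.3% to 85.7% in the others. The fourth summed to 52.9 ± 10.3 CPM in origanifolium (SD, n = 4), against 61.4 ± 9.22 CPM in the others (SD, n = 12), and its member held 26.2% to 47.1% in origanifolium and 47.6% to 61.2% in the others. These 4 genes were singled out after their values were seen, and the shift in share was not tested.

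The same rule was applied to the other subspecies in turn. It found 148 clusters lowest in origanifolium, 144 lowest in andalusicum (0.447%), 149 lowest in marifolium (0.463%) and 136 lowest in molle (0.422%). The numbers were alike, but the reductions were smaller in origanifolium. The median ratio was 0.486 for origanifolium, against 0.180 for andalusicum, 0.140 for marifolium and 0.223 for molle. A ratio below 0.5 was found in 80 clusters (54.1%) for origanifolium, against 131 (91.0%), 129 (86.6%) and 113 (83.1%) for andalusicum, marifolium and molle. Full absence was found in 2 clusters for origanifolium, against 16, 34 and 12 for the same 3.

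**Figure D5:**
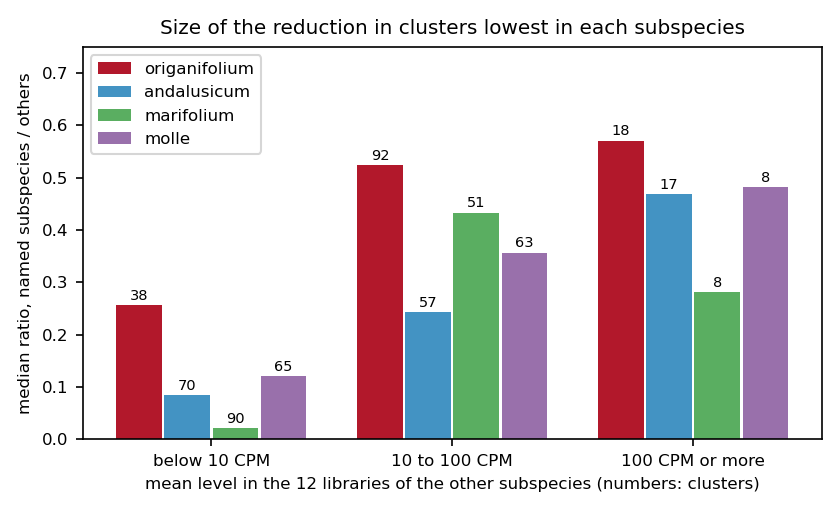
Median ratio of the mean in the named subspecies to the mean in the 12 libraries of the others (y axis, from 0), for clusters lowest in that subspecies, by their level in the others (x axis); numbers above the bars count clusters. In each class the origanifolium bar is the highest: 0.256 below 10 CPM, 0.524 between 10 and 100 CPM and 0.571 at 100 CPM or more.

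The clusters also differed in level. Their median level in the other subspecies was 25.8 CPM for origanifolium, against 10.3 CPM for andalusicum, 6.23 CPM for marifolium and 10.5 CPM for molle. Within classes of level the origanifolium ratios were still the highest of the 4. Below 10 CPM the median ratio was 0.256 for origanifolium, against 0.0842 for andalusicum, 0.0203 for marifolium and 0.120 for molle. Between 10 and 100 CPM it was 0.524, against 0.243, 0.433 and 0.357, and at 100 CPM or more 0.571, against 0.469, 0.281 and 0.482. Each of these medians comes from clusters chosen by their own values, so they were compared without a test.

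The assembler names and lengths of the members were set beside those of the 32213 clusters with a mean of at least 1 CPM. This was done without a test. Transcript names look like those of the assembler Trinity in 89 members and like those of Oases in 57, while 2 had both. The share with the first form alone was 60.1%, against 61.5% of those 32213 clusters. A single transcript made up 144 of the members (97.3%, against 95.2%). Transcript lengths were given for 59 members and ran from 397 to 3095 nt with a median of 1121 nt. In the 12393 of those 32213 clusters with a length, the median was 1462 nt.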

How the data were processed

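Poly-A RNA from leaves was sequenced in 16 libraries. The authors deposited raw counts, as whole numbers for each transcript cluster, and 1 other file, which assigns 122009 transcript names to clusters. Of these names, 18116 stand under 7 cluster names with no counts and were left out. FastQC is named per the submitters' processing notes; assembler, aligner, counter and strandedness are not given in the sources here, so reads of overlapping, antisense or near-identical transcripts may be uncertain. The files pair no gene names or sequences with clusters, so no pathway list could be used and no sequence is shown.

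All 16 columns were matched to libraries by title, and 0 were unmatched. CPM is a cluster's count over its column total times 1000000. The members, lists and tests were chosen with earlier results of these data known. Tests used edgeR 4.0.16 in R 4.3.3: TMM, filterByExpr by subspecies, quasi-likelihood F-tests on all 16 libraries, and Benjamini-Hochberg adjustment over the 46027 clusters kept (54435 left out). The common dispersion was 1.10. Title codes were compared in a model with 8 codes. Standard errors derive from the F statistic. Background clusters are the 21640 with a mean of at least 1 CPM and counts in all 12 libraries of the other subspecies. Background shares beside test calls are over all tested clusters.

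Identifiers were printed for the absent member with the highest lowest CPM in the others and the reduced member with the largest gap. Other members were described without identifier: the 6 most abundant, the next 4 by gap, the 3 on each side of the rule, and those with the smallest p. Alternatives were other scalings, means, filters and tools (DESeq2 1.42.0, limma 3.58.1), thinning to 22170314 counts, summed genes, summed title codes, and leaving out libraries. The tests and the rule were checked on simulated data.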

Additional observations from a re-analysis of the deposited data

Results flagged for a closer look

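In 8 of 78 groups of 4 libraries, 1 library lay far from the other 3 by Dixon's criterion for 4 samples. The groups cover most of the members described singly and each subspecies' share of counts in the members. The 3 nearly level members, the 3 clusters just outside the rule and the linked clusters were not examined. Members described only with their linked genes were not examined either. Chance flags about 1 in 20 groups of normally distributed values. A group with counts in 1 library alone, as in the clusters with a single count below, is always flagged. No explanation was tested for any of them.

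In Cluster-3823.41156, origanifolium 39 had 0.0312 CPM, its 1 count, while the other 3 origanifolium libraries had 0. In the same cluster andalusicum 1 had 77.3 CPM, against 15.4 to 23.2 CPM in the other andalusicum libraries. In the second cluster with a single count, origanifolium 31 had 0.0451 CPM and the other 3 had 0. In the cluster with the second-largest gap, molle 22 had 9.26 CPM, against 2.08 to 3.20 CPM in the other molle libraries.

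Andalusicum 6 stood apart in 2 of the most abundant members. It had 4713 CPM in the highest of all, against 1976 to 2223 CPM in the other andalusicum libraries, and 1222 CPM in the fourth, against 530 to 620 CPM. A cluster just inside the rule had 2 such libraries: origanifolium 38 with 54.9 CPM, against 39.7 to 41.6 CPM in the other origanifolium libraries, and molle 22 with 110 CPM, against 79.3 to 84.5 CPM in the other molle libraries.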

How the results depend on the processing

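The number of members depended on the scaling and on the libraries. TMM scaling gave 124 members, 101 of them shared with the 148, and DESeq2 size factors 143, with 112 shared. No minimum mean gave 152 members, a mean of 5 CPM 128, thinning 134, and summed genes 142. As a percent of the 32213 clusters with a mean of at least 1 CPM over all libraries, where the 148 members are 0.459%, the members were 0.736% without marifolium 12 and 18. Leaving out 1 library gave 0.481% to 0.789%, since fewer libraries make the rule easier to meet. Without origanifolium 31, 33, 38 or 39 it was 0.779%, 0.764%, 0.789% and 0.698%. With the same 148 members kept, the median ratio stayed between 0.472 and 0.492 under other scalings and with libraries left out. These alternatives were chosen after seeing the data. No ratio was computed for the sets selected anew, so whether the size of the reduction depends on the selection was not tested.

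The 2 absent members became 1 at a mean of 5 CPM, 4 with at most 1 count in any origanifolium library allowed, 4 without marifolium 12 and 18, and 2 to 5 with 1 library left out (5 without origanifolium 31, 4 without origanifolium 39 or andalusicum 8).

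Of the tests, DESeq2 called 10 members among the 3 other subspecies, 8 between andalusicum and marifolium, 2 between andalusicum and molle, 9 between marifolium and molle, and 5 linked clusters. These are 6.76%, 5.41%, 1.35% and 6.08% of the members, against 10.2%, 10.1%, 6.07% and 9.96% of all clusters that DESeq2 tested, in the same order. Summing the libraries of each title code left 0 in all of these. That fit called between 0.00146% and 0.0248% of all tested clusters in these comparisons. Without marifolium 12 and 18, 1 member was called among the 3 subspecies, 0 between andalusicum and marifolium, 0 between marifolium and molle, and 1 linked cluster. Of all 60150 clusters tested then, 438, 169, 151 and 450 were called, in the same order. With no filter on low counts, 3 members were called between andalusicum and marifolium and 1 linked cluster. Of all 100462 clusters, 488 and 1273 were called, in the same order. With 1 library left out, the counts ran from 3 to 6 among the 3 subspecies, 2 to 5 for andalusicum and marifolium, 0 to 1 for andalusicum and molle, 3 to 5 for marifolium and molle, and 0 to 3 for linked clusters. Of the 51004 to 53223 clusters tested then, 750 to 1967, 365 to 656, 82 to 208, 308 to 573 and 495 to 1908 were called, in the same order. The title codes of origanifolium gave 0 throughout. The cause of these differences was not tested for any alternative. The fits with summed codes, and limma with the code as a random effect, could not be made for the comparison of codes.

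No paired analysis was possible because the library numbers are not shared between subspecies. For single clusters, 340 of the adjusted p-values under an alternative stayed on their side of 0.05 and 87 lost the call, with none reversed. As to depth, the counting interval of at least 1 origanifolium library overlapped that of a library of another subspecies in 116 of the 148 members.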
